A study of Mus musculus with 79 samples.

Results

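Described here are 10 genes whose transcripts were far lower in the distal nerve stump when repair was delayed. They are Slc17a8, Syt4, Matn4, Arnt2, D430041D05Rik, Nr1h4, Btbd16, Tmem158, Gas2l3 and Tex2, 10 of the 23361 genes in the count tables. They were chosen by their counts in the distal stump, which after delayed repair were strongly and consistently below those after immediate repair. The stump values of delayed against immediate repair are therefore a description of the choice and carry no test, while the sorted cells and the days were not used to pick them.

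The animals were mice of both sexes that express green fluorescent protein under the human S100B promoter. The tibial nerve branch was cut, and a freshly cut common peroneal branch was sutured to its distal stump within a silicone conduit, either at once or 8 weeks later. The study collected the distal stump 5 days after repair, and macrophages and Schwann cells (SC) sorted from the tissue bridge in the conduit 5 and 14 days after repair. The 79 libraries came from 32 animals: 9 delayed and 7 immediate stump libraries, 9 and 7 SC libraries at day 5, 7 and 8 SC libraries at day 14, 9 and 8 macrophage libraries at day 5, and 7 and 8 at day 14. Stump and SC libraries shared 15 animals. The labels give the bridge as the tissue of every sample, stump included, and only the cell type field names the stump. In the immediate group the leg had been opened and closed 8 weeks before the repair. Levels are given in CPM, each count divided by its library's total and brought to a common total.

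Myelinating Schwann cells lose their myelin when the axon they wrap is cut, re-enter the cell cycle and take on a repair phenotype that guides regrowing axons. This phenotype fades when the stump stays without axons for long, and chronically denervated stumps also lose Schwann cells. Most of the 10 genes are better known outside peripheral nerve. Slc17a8 encodes VGLUT3, which loads glutamate into vesicles. Syt4 encodes a synaptotagmin, a vesicle membrane protein of neurons and endocrine cells. Arnt2 is a basic helix-loop-helix PAS transcription factor that acts as a dimer with others of its class. Nr1h4 encodes FXR, the nuclear receptor for bile acids. Matn4 encodes matrilin-4, an adaptor of the extracellular matrix, and Gas2l3 a linker of actin and microtubules with a part in cytokinesis. Tex2 encodes a lipid transfer protein of the endoplasmic reticulum, and Tmem158 a membrane protein induced by Ras signaling. Btbd16 and D430041D05Rik, the mouse KIAA1549L, have no well established role.

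Of the 10 genes, 3 are direct neighbors on chromosome 10. On mm10, which is GRCm38, and with the GENCODE M21 annotation, Slc17a8 lies at chr10:89574020-89621253, Nr1h4 at chr10:89454234-89533585 and Gas2l3 at chr10:89408823-89443967. All 3 are protein-coding genes on the minus strand and are read in that order, with gaps of 40.4 and 10.3 kb over a span of 212 kb. The other genes lie on other chromosomes or far apart, with Arnt2 at chr7:84246278-84410176, Btbd16 at chr7:130774069-130825899, Matn4 at chr2:164389393-164405160, D430041D05Rik at chr2:104143073-104411013, Tmem158 at chr9:123259053-123260764 and Tex2 at chr11:106502147-106613423. The promoters of the 3 neighbors are shown because these genes are adjacent and were all lower in the stump after delay. Each line below is RefSeq sequence of GRCm38.p6, minus strand, from 250 bases before to 50 bases after a gene start, written 5′ to 3′, with matches to the searched letters in capitals. The windows are chr10:89621200-89621499 and chr10:89599766-89600065 for the 2 starts of Slc17a8, chr10:89506609-89506908 for Nr1h4, whose RefSeq start lies inside the GENCODE gene, and chr10:89443918-89444217 for Gas2l3.
Slc17a8, upstream start: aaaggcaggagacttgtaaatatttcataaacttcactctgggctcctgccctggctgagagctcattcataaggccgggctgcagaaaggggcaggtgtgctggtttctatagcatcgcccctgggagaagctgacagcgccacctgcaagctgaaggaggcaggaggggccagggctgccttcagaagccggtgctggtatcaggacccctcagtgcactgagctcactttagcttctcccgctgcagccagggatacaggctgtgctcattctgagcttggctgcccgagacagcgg
Slc17a8, internal start: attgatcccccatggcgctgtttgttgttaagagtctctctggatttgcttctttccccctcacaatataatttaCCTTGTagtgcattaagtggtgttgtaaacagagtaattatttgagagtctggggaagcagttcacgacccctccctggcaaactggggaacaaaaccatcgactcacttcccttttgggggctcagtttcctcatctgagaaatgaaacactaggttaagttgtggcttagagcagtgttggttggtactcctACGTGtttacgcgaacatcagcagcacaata
Nr1h4: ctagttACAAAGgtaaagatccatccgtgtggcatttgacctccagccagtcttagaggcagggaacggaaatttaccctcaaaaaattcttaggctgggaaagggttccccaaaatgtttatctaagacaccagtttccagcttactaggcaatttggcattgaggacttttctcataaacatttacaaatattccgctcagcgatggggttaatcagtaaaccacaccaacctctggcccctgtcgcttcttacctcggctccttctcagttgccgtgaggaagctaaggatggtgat
Gas2l3: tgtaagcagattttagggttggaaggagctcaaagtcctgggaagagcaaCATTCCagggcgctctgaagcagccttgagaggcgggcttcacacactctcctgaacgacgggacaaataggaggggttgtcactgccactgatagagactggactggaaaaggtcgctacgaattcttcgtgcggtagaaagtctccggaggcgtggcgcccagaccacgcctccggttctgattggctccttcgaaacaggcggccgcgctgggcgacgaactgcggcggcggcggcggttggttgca

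The capitals mark the SOX letters ACAANG in Nr1h4 and, on the other strand, in the internal Slc17a8 window, the hypoxia response core ACGTG in the internal Slc17a8 window, and the TEAD letters GGAATG, on the other strand, in Gas2l3. Both strands were searched, no match overlapped another, and a match is only a match of letters. RefSeq windows were matched for 8 of the 10 genes, with 12 windows in all. ACAANG was in 4 of these 12 windows, 1 each of Arnt2, D430041D05Rik, Nr1h4 and Slc17a8, and in 41.2% of all 32851 windows. GGAATG was in 4 of the 12, 1 each of Gas2l3 and Matn4 and 2 overlapping windows of Btbd16, and in 14.7% of all windows. ACGTG was in 2 of the 12, 1 each of D430041D05Rik and Slc17a8, and in 19.6% of all windows. The AP-1 letters TGANTCA, the CRE letters TGACGTCA, the EGR letters GCGTGGGCG, the TATA letters TATAAA and the inverted repeat 1 of nuclear receptors were in none of the 12, and were in 7.81%, 1.79%, 0.612%, 13.6% and 0.00913% of all windows. The windows of Nr1h4 and Slc17a8 held 45% to 58% G and C, that of Gas2l3 59%, and those of Arnt2 and Tex2 76.7% and 78.7%, against a median of 52.7% over all windows.

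Total counts ran from 3898778 to 9212709 for the stump, from 11614940 to 30796823 for SC and from 14928745 to 28499407 for macrophages, and 3 counts correspond to 0.326 to 0.769 CPM in a stump library. In the stump, a score of 12 Schwann cell markers (the mean of log2(CPM + 1)) ran from 3.74 to 5.93 after delay and from 6.61 to 7.64 after immediate repair, without overlap. Of these 12 markers 11 fell and 1 rose in the stump with delay, with a median log2 fold change of -2.35 against 0.02 over all 12229 genes tested. S100b fell by 4.86 (SE 0.42, adjusted p = 8.9e-07 by edgeR's quasi-likelihood test) and Sox10 fell by 2.03 (SE 0.35, adjusted p = 0.000524) on the log2 scale. In bulk tissue, fewer cells of a type and less RNA per cell cannot be told apart. Skeletal muscle genes (Acta1, Myh4, Ckm, Tnnt3 and Mylpf) summed to 2204 CPM in delayed stump replicate 5 and to 215 CPM in replicate 9, and to at most 40.0 CPM in the other 14 stump libraries. In the SC fraction of day 14, 4 neutrophil markers summed to 8095.5 CPM in immediate replicate 3 and to 1341 CPM in immediate replicate 5, and to between 10.6 and 69.8 CPM in the other 13 libraries. The muscle genes summed to 469.8 CPM in delayed replicate 2 and to 188 CPM in immediate replicate 8 of that day, and to at most 7.58 CPM in the other 13.

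The sorted SC fraction departed from its label in its markers. S100b was 0 to 24.7 CPM and Sox10 0 to 161 CPM in the 16 SC libraries of day 5, and 0.903 to 49.5 CPM and 13.7 to 199 CPM in the 15 of day 14. Cd74, an antigen presentation gene that dendritic cells share with other cells, was 9517 to 23579 CPM over the 31 libraries. Ccr7, a chemokine receptor of migrating dendritic cells, was 2413 to 9817 CPM. Macrophage libraries reached 14103 CPM of Cd74, at day 14 after delay, and 72.1 CPM of Ccr7, at day 5 after delay. The fraction is therefore called the sorted SC fraction here, and the part of these other transcripts in the results was not tested. The Schwann cell marker score varied widely within it, from 1.24 to 5.17 in delayed and 3.48 to 6.18 in immediate libraries of day 5. At day 14 the score was 4.24 to 6.72 after delay and 4.30 to 6.09 after immediate repair.

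In the distal stump the 10 genes were 3.98 to 43.6 times lower after delay, and for each of them every delayed library lay below every immediate library. The choice of the genes fixes this pattern, and 3.61% of the 12229 genes tested in the stump show it. Of these genes 3221 (26.3%) were called, 1656 (13.5%) lower and 1565 (12.8%) higher after delay, at an adjusted p under 0.05. By fitted log2 fold change the 10 genes took ranks 4, 5, 8, 9, 19, 22, 36, 51, 95 and 128 of the 12229 from the lowest. All 10 passed the filter of at least 5 CPM in at least 6 libraries, which the immediate libraries alone could satisfy. The order of the genes by level within a group was not used to choose them. A shift of that order between the groups, however, follows from their fold changes.

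**Figure D1:**
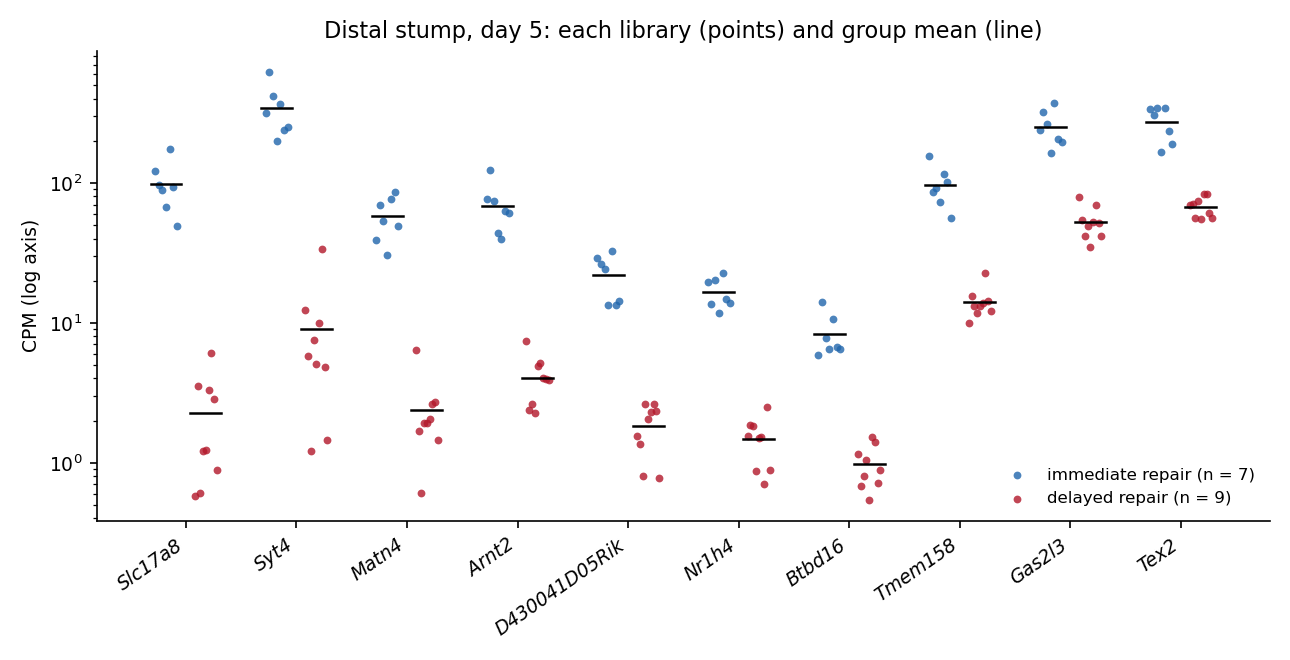
CPM (log axis) of the 10 genes in each distal stump library at day 5, with immediate repair (n = 7) in blue and delayed repair (n = 9) in red; lines are group means. For every gene the red points lie below all blue points, with the widest separation for Slc17a8 and Syt4 and the narrowest for Tex2 and Gas2l3.

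The vesicle genes stood furthest apart. Slc17a8 had a lowest, median and highest level of 49.0, 93.0 and 174 CPM in the 7 immediate libraries and of 0.582, 1.23 and 6.13 CPM in the 9 delayed libraries. The lowest immediate library was 7.99 times the highest delayed one, and the delayed values rest on only 3 to 35 counts each. The fitted log2 fold change was -5.45 (SE 0.39). Syt4 was at 200, 313 and 618 CPM after immediate repair and at 1.21, 5.76 and 33.6 CPM after delay. Delayed replicate 7 was the highest library for both genes, and without it the log2 fold change of Syt4 moved from -5.24 (SE 0.50) to -5.85. That library also had the highest Schwann cell marker score of the delayed group, 5.93. Relatives of these genes did not share their size of change. Of 8 other vesicular transmitter transporters and relatives, 2 passed the filter and neither passed the test (Slc17a5 0.07, SE 0.12, and Slc18a2 -0.18, SE 0.19), while Slc17a6 and Slc17a7, which encode VGLUT2 and VGLUT1, averaged at most 0.276 CPM in either group. Of 16 other synaptotagmins, 4 passed the filter: Syt6 fell by 1.58 (SE 0.46, adjusted p = 0.017), Syt15 rose by 0.80 (SE 0.23, adjusted p = 0.017), and Syt11, the closest relative of Syt4, was at -0.35 (SE 0.16, adjusted p = 0.114) and Syt12 at -0.12 (SE 0.16).

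Of the transcription factor genes, Arnt2 was at 39.9, 62.6 and 123 CPM (lowest, median and highest) after immediate repair and at 2.27, 3.95 and 7.37 CPM after delay, with a log2 fold change of -4.05 (SE 0.26). Nr1h4 was at 11.8, 14.9 and 22.6 CPM after immediate repair and at 0.701, 1.54 and 2.52 CPM after delay, on 4 to 14 counts a delayed library, with a log2 fold change of -3.47 (SE 0.23). The groups did not overlap for either gene, and the lowest immediate library was 5.41 times the highest delayed one for Arnt2 and 4.71 times for Nr1h4. Among 15 partners and relatives of Arnt2, 8 passed the filter, 2 of which rose past the threshold and none of which fell past it. The lowest was Npas2, at -0.31 (SE 0.18, adjusted p = 0.219). Its paralog Arnt rose by 0.27 (SE 0.09, adjusted p = 0.036) and Epas1, which encodes the hypoxia factor HIF-2α, by 0.82 (SE 0.22, adjusted p = 0.012), whereas Arntl2 was at 0.55 (SE 0.22, adjusted p = 0.072) and Arntl at 0.28 (SE 0.14, adjusted p = 0.150). Of 16 relatives, dimer partners and target genes of Nr1h4, 4 passed the filter and none passed the test. They were the sister receptors Nr1h2 (0.15, SE 0.07, adjusted p = 0.099) and Nr1h3 (0.33, SE 0.20), and the partners Rxra (0.25, SE 0.10, adjusted p = 0.061) and Rxrb (0.15, SE 0.09). The bile acid genes Cyp7a1, Abcb11, Nr0b2 and Fgf15 averaged at most 0.217 CPM in either stump group and, like Slc17a6 and Slc17a7, were named after their values were seen.

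The matrix gene Matn4 was at 30.5, 53.2 and 86.1 CPM after immediate repair and at 0.607, 1.92 and 6.40 CPM after delay. The delayed values rest on 3 to 33 counts each, delayed replicate 1 was the highest of them, and the lowest immediate library was 4.76 times as high. The log2 fold change was -4.60 (SE 0.31). Matn4 overlaps Rbpjl on the opposite strand, which averaged 0.103 CPM after delay and 0.525 CPM after immediate repair. Of the other matrilins, Matn2 fell by 0.77 (SE 0.22, adjusted p = 0.017) from a mean of 260.1 to 149.9 CPM, while Matn1 and Matn3 averaged at most 0.854 CPM and were not tested.

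Gas2l3, Tex2 and Tmem158 kept the most transcript after delay. Gas2l3 was at 164, 237 and 369 CPM after immediate repair and at 34.5, 51.8 and 79.4 CPM after delay, a log2 fold change of -2.24 (SE 0.18). Tex2 was at 165, 305 and 344 CPM against 54.9, 69.7 and 83.4 CPM, a log2 fold change of -1.99 (SE 0.15). Tmem158 was at 55.7, 91.8 and 156 CPM against 9.90, 13.2 and 22.6 CPM, a log2 fold change of -2.76 (SE 0.19). For Gas2l3 and Tex2 the lowest immediate library was 2.06 and 1.98 times the highest delayed one, the closest approach among the 10 genes. In the Gas2 family, Gas2 fell by 1.199 (SE 0.21, adjusted p = 0.000501), Gas2l1 was at -0.13 (SE 0.13) and Gas2l2 was not tested, at a mean of at most 0.149 CPM. All 21 genes of a cytokinesis and mitosis list fell, with a median of -0.90. Prc1 fell by 1.45 (SE 0.18), Racgap1 by 1.23 (SE 0.14), Anln by 1.34 (SE 0.19) and Cenpf by 1.39 (SE 0.20), with adjusted p of 2.9e-05, 1.3e-05, 8.7e-05 and 8.8e-05. Among 6 lipid transfer proteins of membrane contact sites, relatives in function of Tex2, 5 were tested. C2cd2 rose by 0.32 (SE 0.09, adjusted p = 0.012) and Esyt2 (0.19, SE 0.08), C2cd2l (-0.36, SE 0.16) and Esyt1 (0.10, SE 0.07) did not pass the test. Of 16 genes that report Ras and ERK signaling, set beside Tmem158, 15 were tested and 3 fell: Dusp4 by 1.90 (SE 0.20, adjusted p = 6.7e-06), Spry2 by 0.78 (SE 0.11, adjusted p = 8.8e-05) and Etv4 by 0.98 (SE 0.31, adjusted p = 0.028). Phlda1 was at -0.63 (SE 0.28, adjusted p = 0.110), and the median of the list was -0.14.

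The genes of little known role were among the lower ones. D430041D05Rik was at 13.4, 24.1 and 32.8 CPM after immediate repair and at 0.778, 2.05 and 2.63 CPM after delay, a log2 fold change of -3.56 (SE 0.27). Btbd16 was at 5.92, 6.73 and 14.05 CPM against 0.546, 0.890 and 1.54 CPM, a log2 fold change of -3.08 (SE 0.24). The delayed values of Btbd16 rest on 4 to 8 counts each, so that order among the delayed libraries is not resolved at this depth. Btbd16 overlaps Fgfr2 on the opposite strand, which averaged 5.37 CPM after delay and 6.62 CPM after immediate repair. The stump libraries were directional and, per the study's methods, were mapped with a strand setting, while the program that counted the reads is not named. D630045J12Rik, the mouse KIAA1549 and relative of D430041D05Rik, was at -0.09 (SE 0.18).

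Divided by exon length, which allows levels to be compared between genes, the order of the 10 genes differed between the repair groups. Exon lengths are fixed, so this difference restates the unequal stump fold changes and is no separate result. After immediate repair Syt4 led with 88.2 CPM per kb (SD 36.6), followed by Tmem158 with 56.7 (SD 18.9), Tex2 with 49.1 (SD 13.7) and Gas2l3 with 35.7 (SD 10.4). Slc17a8 followed with 20.9 (SD 8.59), Matn4 with 11.2 (SD 3.93), Arnt2 with 8.94 (SD 3.58), Nr1h4 with 7.21 (SD 1.77), Btbd16 with 2.23 (SD 0.804) and D430041D05Rik with 1.32 (SD 0.485). After delay Tex2 led with 12.1 CPM per kb (SD 2.03), then Tmem158 with 8.20 (SD 2.1) and Gas2l3 with 7.48 (SD 1.99), and Syt4 followed with 2.34 (SD 2.54). The other 6 genes were all at or below 0.640 CPM per kb. Neighbors in each order overlapped in range, except Nr1h4 (lowest library 5.14) and Btbd16 (highest library 3.77) after immediate repair.

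The stump samples differed between repair groups in Schwann cell markers as well as in the 10 genes. Of 13 tested myelin genes 11 fell (median -2.06), among them Mbp by 2.06 (SE 0.15, adjusted p = 2.2e-07), Gjb1 by 6.14 (SE 0.50, adjusted p = 3.8e-07), Cnp by 1.90 (SE 0.16, adjusted p = 4.5e-07) and Pou3f1 by 3.87 (SE 0.34, adjusted p = 9.3e-07). Of 17 tested genes of the repair Schwann cell 11 fell and 1 rose (median -0.996). Shh fell by 5.91 (SE 0.57, adjusted p = 2.3e-06), Gfra1 by 3.39 (SE 0.36, adjusted p = 7.2e-06), Atf3 by 1.86 (SE 0.20, adjusted p = 8.1e-06) and Jun by 0.77 (SE 0.10, adjusted p = 3.9e-05). Of 9 macrophage markers 2 rose and none fell (median 0.38; Emr1 0.84, SE 0.28, adjusted p = 0.033, and Cd14 0.34, SE 0.25), and 5 of 6 endothelial markers rose (median 0.70; Pecam1 by 0.71, SE 0.12, adjusted p = 0.000369, and Cdh5 by 0.71, SE 0.12, adjusted p = 0.000403). When the Schwann cell marker score was added to the fit as a covariate, the log2 fold changes of the 10 genes shrank to between -2.94 (SE 0.60) for Nr1h4 and -1.08 (SE 0.31) for Gas2l3, while the number of genes called in the stump went from 3221 to 24. The score does not overlap between the groups, so this fit separates repair and score only through its straight line.

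The 3 neighbors on chromosome 10 were set beside the tested genes around them, a comparison chosen after their positions and values were seen. In the order in which they are read, the stump log2 fold changes were -5.45 for Slc17a8, -3.47 for Nr1h4 and -2.24 for Gas2l3. The next tested genes upstream of Slc17a8 were at 0.01 (SE 0.11, Scyl2), -0.05 (SE 0.15, Actr6) and 0.03 (SE 0.08, Uhrf1bp1l), with adjusted p of 0.943, 0.821 and 0.814. Downstream of Gas2l3, Ano4 averaged 1.70 CPM after delay and 0.499 CPM after immediate repair and was not tested, and Utp20 and Arl1 were at -0.10 (SE 0.08) and -0.11 (SE 0.14). Of the 95 genes ranked at or below Gas2l3 in the stump, 9 had another of the 95 within 100 kb, namely these 3 neighbors, Sox2, Sox2ot, Dusp15, Xkr7, Gadd45a and E230016M11Rik. The share in other sets of tested genes was not computed, so whether this count is high was not tested.

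**Figure D2:**
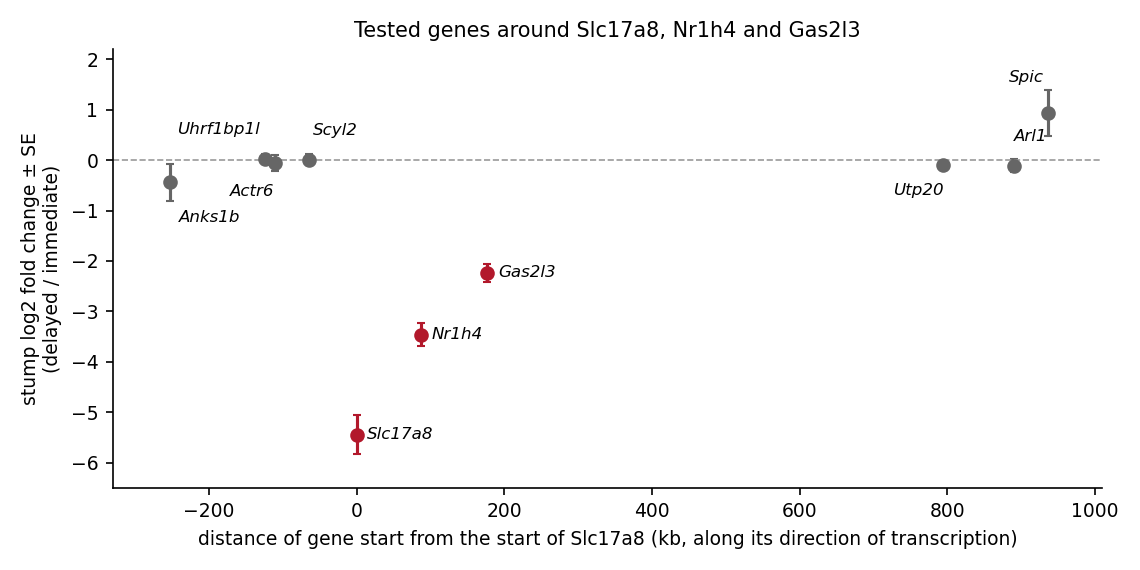
Stump log2 fold change of delayed against immediate repair (± SE) for the tested genes around Slc17a8, by the distance of each gene start from that of Slc17a8 in kb along its direction of transcription. The 3 neighbors (red) lie at -5.45, -3.47 and -2.24, and the tested genes around them (gray) lie between -0.44 and 0.94.

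Within the stump groups the 10 genes varied together only in part. After the mean of each repair group was removed, 39 of their 45 pairs had a Pearson correlation above 0 over the 16 libraries, with a median of 0.34 and a range of -0.20 to 0.80. All pairs share libraries and depth, the share over pairs of other genes was not computed, and the values are given as a description. The tested genes outside the 10 whose levels went most closely with the mean of the 10 were Itpr3 (r = 0.947), Usp6nl (0.931), Pcbp4 (0.931), Mid2 (0.928) and Serinc5 (0.925). All 5 also fell with delay, from -0.92 (SE 0.18, Itpr3, adjusted p = 0.00144) to -2.16 (SE 0.27, Serinc5, adjusted p = 2.9e-05). For 9 of the single genes the closest were Fam129b for Gas2l3 (r = 0.957), Pcnx for Tex2 (0.954), Maml2 for Nr1h4 (0.915), Sytl2 for Tmem158 (0.904), Suco for D430041D05Rik (0.897), Ank for Matn4 (0.883), Prc1 for Btbd16 (0.877), Foxo4 for Slc17a8 (0.862) and Grsf1 for Arnt2 (0.819). Of these 9, Ank (-1.43), Sytl2 (-1.45), Suco (-0.73), Prc1 (-1.45), Pcnx (-1.33) and Fam129b (-1.01) fell with delay and Maml2 rose (0.35, SE 0.11, adjusted p = 0.033), while Foxo4 was at -0.27 (SE 0.10, adjusted p = 0.057) and Grsf1 at 0.02 (SE 0.06).

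In the stump none of the 10 genes differed between females (8 libraries) and males (8) past the threshold. With repair as a covariate the log2 differences, female over male, ran from -0.20 (SE 0.26, Arnt2) to 0.38 (SE 0.37, Slc17a8), and the lowest adjusted p was 0.623. Over all genes edgeR called 8 (0.0654%) and DESeq2 90. The interaction of repair and sex rests on the same stump contrast that chose the genes, so it is given for them as a description only, from -0.89 (Matn4) to 1.09 (Syt4).

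In the sorted SC fraction of the bridge, only some of the 10 genes were well measured, and none differed between delayed and immediate repair past the threshold. At day 5, 4 genes passed the filter (Tmem158, Syt4, Tex2 and Gas2l3), and at day 14 Matn4 did as well. Arnt2, Nr1h4, Slc17a8, D430041D05Rik and Btbd16 failed it on both days. Over all genes edgeR called 0 of 9604 at day 5 (0%; 505 at an unadjusted p under 0.05, 14 called by DESeq2) and 0 of 10226 at day 14 (0%; 373 at an unadjusted p under 0.05, 3 called by DESeq2). In data simulated with the spread of these libraries, the same test recovered 71% of genes changed 4-fold and 92% of genes changed 16-fold at day 5, and 80% and 98% at day 14. The changed genes were drawn at random from those that passed the filter. These shares therefore do not cover the genes that failed it. They are averages and can be lower for a gene as variable as Syt4 (SE 1.39 at day 5).

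**Figure D3:**
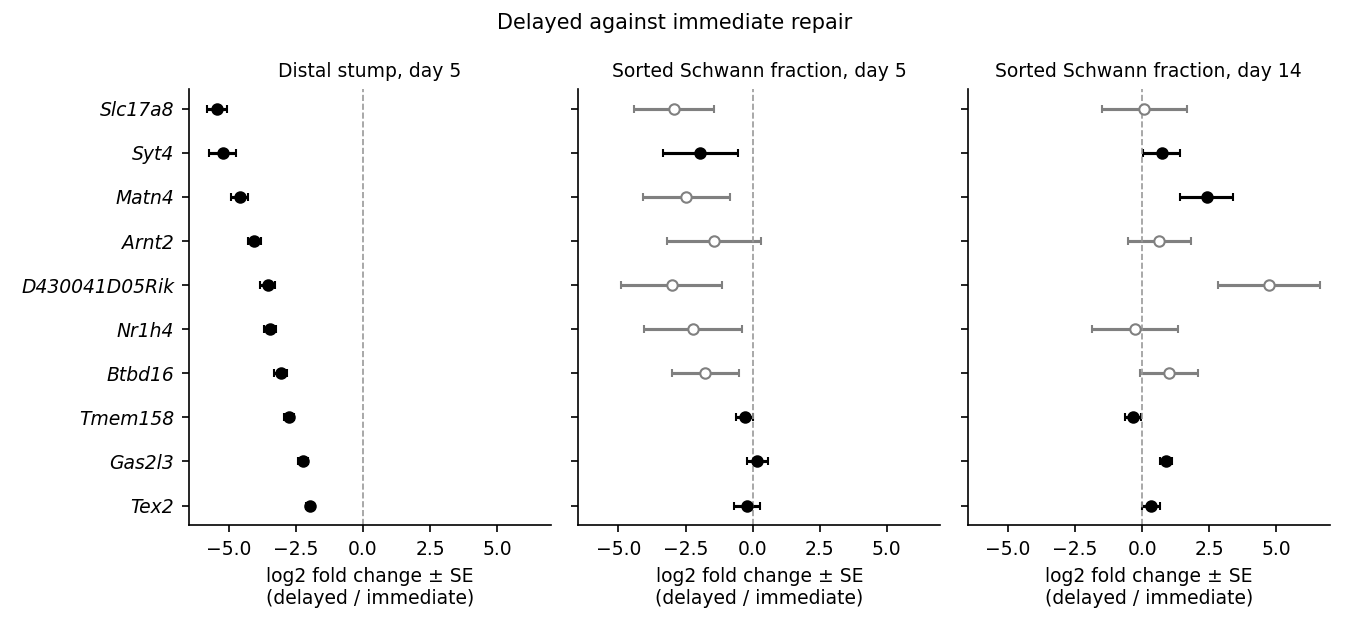
Log2 fold change of delayed over immediate repair (± SE) of the 10 genes in the distal stump at day 5 and in the sorted SC fraction at days 5 and 14. Filled points passed the filter, and open points come from the fit without a filter. In the SC fraction 9 of 10 points lie below 0 at day 5 and 8 of 10 above 0 at day 14. Of these points, 6 at day 5 and 5 at day 14 are open, with wide errors. Over all genes tested, 51.9% were below 0 at day 5 and 50.9% at day 14. The 10 points of a day share their libraries, so their signs are not independent.

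Syt4 showed the widest range of all in the SC fraction. At day 5 its lowest, median and highest level was 0.035, 24.1 and 226 CPM after immediate repair and 0, 2.77 and 100 CPM after delay. The groups overlapped, with 2 delayed libraries without a single count, 2 immediate libraries at 1 count each, and delayed replicate 2 above 5 of the 7 immediate libraries. The log2 fold change was -1.95 (SE 1.39, adjusted p = 0.921), and it was -3.29 without delayed replicate 2 and -1.17 without immediate replicate 1. At day 14 it was at 6.26, 31.3 and 108 CPM after immediate repair and at 3.47, 23.8 and 195 CPM after delay, and the log2 fold change was 0.73 (SE 0.69, adjusted p = 0.998).

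Matn4 was uneven between SC libraries at day 5, and 3 counts correspond to 0.0974 to 0.258 CPM in an SC library. After delay its highest level was 3.34 CPM, on 76 counts, and 5 of 9 libraries had no count. After immediate repair its highest level was 9.88 CPM, with up to 239 counts in a library, and 2 of 7 had none. At day 14 it was at 0, 1.90 and 8.18 CPM after immediate repair and at 1.06, 7.75 and 29.9 CPM after delay. The groups overlapped, but the 3 highest delayed libraries (15.2, 26.1 and 29.9 CPM) lay above every immediate one. The log2 fold change at day 14 was 2.40 (SE 0.99), with an unadjusted p of 0.027 and an adjusted p of 0.998 in edgeR. Of the 6 libraries at 5 CPM or more that the filter asks for, 5 were delayed and 1 was immediate, so Matn4 passed almost only through the group in which it was higher. Its highest library is the one with the muscle genes, delayed replicate 2, without which it failed the filter. The value was 2.38 without immediate replicate 3, 2.23 without immediate replicate 5 and 2.35 without immediate replicate 8. At day 5, where Matn4 failed the filter, the edgeR fit without a filter gave -2.48 (SE 1.62, unadjusted p = 0.143, adjusted p = 0.662). The interaction of repair and day, which draws on both days, was 4.90 for Matn4 (SE 1.93, unadjusted p = 0.017, adjusted p = 0.944). Over all genes the interaction called 0 of 10923 (0%, with 524 at an unadjusted p under 0.05 and 9 called by DESeq2).

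Gas2l3 in the SC fraction was at 9.76, 25.3 and 38.9 CPM after immediate repair and at 10.2, 22.3 and 81.7 CPM after delay at day 5 (log2 fold change 0.18, SE 0.39, adjusted p = 0.985). The library at 81.7 CPM, delayed replicate 9, also had the highest macrophage marker sum of the SC fraction, 10849 CPM, with Emr1 at 590.6 CPM. The part of these transcripts in its level was not tested. Leaving out each library in turn gave log2 fold changes from -0.18 to 0.34. At day 14 Gas2l3 was at 11.7, 22.2 and 34.3 CPM after immediate repair and at 26.7, 42.7 and 61.3 CPM after delay. Every delayed library of day 14 was above the immediate mean of 22.1 CPM, although the ranges overlapped. The log2 fold change at day 14 was 0.90 (SE 0.23), with an unadjusted p of 0.001 and an adjusted p of 0.998, in the direction opposite to the stump of day 5. It was 0.89 and 0.86 without immediate replicates 3 and 5, which stand apart in neutrophil markers, and 0.92 and 0.94 without delayed replicate 2 and immediate replicate 8, which stand apart in muscle genes. The 21 cytokinesis and mitosis genes had a median of 0.26 in the same comparison, with 7 of 21 below 0 and none called.

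Tmem158 and Tex2 overlapped widely between the groups on both days, and neither passed the test. Tmem158 ran from 17.8 to 98.0 CPM after immediate and from 16.9 to 48.8 CPM after delayed repair at day 5 (log2 fold change -0.30, SE 0.33, adjusted p = 0.971). At day 14 it ran from 18.8 to 57.9 and from 12.02 to 43.5 CPM (-0.34, SE 0.30, adjusted p = 0.998). Tex2 ran from 10.2 to 149 and from 12.1 to 130 CPM at day 5 (-0.20, SE 0.48, adjusted p = 0.988), and from 7.47 to 76.6 and from 35.4 to 82.5 CPM at day 14 (0.33, SE 0.34, adjusted p = 0.998). Bridge cells and stump tissue were prepared with different library kits, and the difference between their fold changes was not tested.

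**Figure D4:**
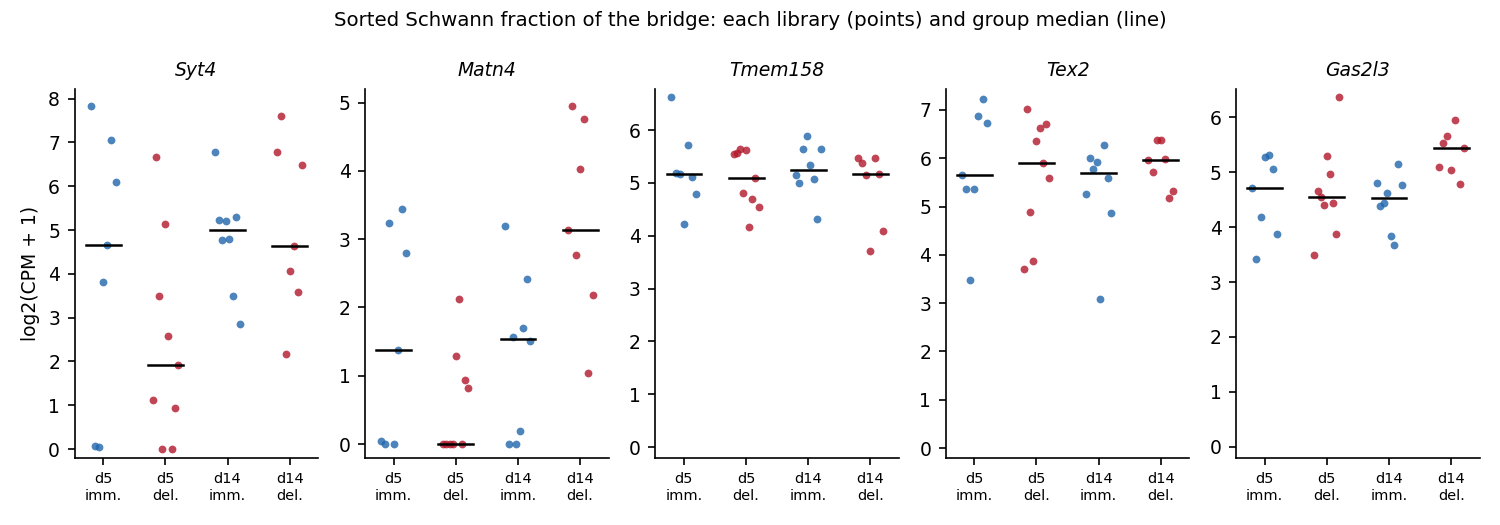
Level of 5 genes, as log2(CPM + 1), in each library of the sorted SC fraction, by day and repair (immediate in blue, delayed in red); lines are group medians. Syt4 spreads from 0 to 226 CPM at day 5, Matn4 and Gas2l3 at day 14 sit higher after delay with overlapping ranges, and Tmem158 and Tex2 overlap throughout.

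The 5 genes that failed the filter on both days were present in some SC libraries only. At day 5 Arnt2 had counts in 4 of 9 delayed and 4 of 7 immediate libraries, Nr1h4 in 3 and 3, D430041D05Rik in 3 and 2, Slc17a8 in 6 and 6, and Btbd16 in 7 and 6. Their highest level at day 5 was in an immediate library for all 5 (7.49, 6.86, 4.82, 4.32 and 15.7 CPM). In immediate replicate 7 Arnt2, D430041D05Rik and Slc17a8 were each at their highest of day 5, and Nr1h4 was at its second highest. A fit without the filter placed all 5 below 0 at day 5, with Slc17a8 at -2.92 (SE 1.49, unadjusted p = 0.066, adjusted p = 0.480) nearest to the threshold. At day 14 the same fit placed Arnt2 at 0.63 (SE 1.18), Btbd16 at 0.996 (SE 1.07), Slc17a8 at 0.08 (SE 1.58) and Nr1h4 at -0.27 (SE 1.61). D430041D05Rik was at 4.73 there (SE 1.90, unadjusted p = 0.023, adjusted p = 0.461), where 62 of the 92 counts of the delayed libraries came from 1 library and the immediate libraries held 4 counts in all.

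Of the 4 genes that passed the filter at day 5, Tmem158, Syt4 and Tex2 were below 0 and Gas2l3 was above it. Over all genes tested 51.9% were below 0, and the sign changed for Tmem158, Tex2 and Gas2l3 when single libraries were left out. At day 5 all 12 Schwann cell markers were below 0 in delayed against immediate repair (median -1.63) and all 9 macrophage markers above 0 (median 1.51), with 0 of either called. S100b was at -2.81 (SE 1.02, adjusted p = 0.818) and Emr1 at 1.61 (SE 0.93, adjusted p = 0.921). At day 14 the 12 Schwann cell markers had a median of 0.39, with 3 below 0, and all 13 tested myelin genes were above 0 (median 1.62), with none called. Over the 31 SC libraries, after group means were removed, the Schwann cell marker score had a Pearson correlation of 0.704 with Syt4, 0.662 with Tex2, 0.509 with Arnt2 and 0.438 with Matn4, and between 0.178 and 0.358 with the other 6 genes. A score of 9 dendritic cell markers, built in the same way, had correlations from -0.350 (Btbd16) to 0.367 (Slc17a8), with Syt4 at -0.335 and Tex2 at 0.128. The points share library and depth, and no p is given. With the Schwann cell marker score as a covariate at day 5, Syt4 moved from -1.95 to 1.59 (SE 1.54, adjusted p = 0.791) and Tex2 from -0.20 to 1.01 (SE 0.41, adjusted p = 0.515). At day 14 Gas2l3 kept its value with the score in the fit (0.90, SE 0.24, adjusted p = 0.734).

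**Figure D5:**
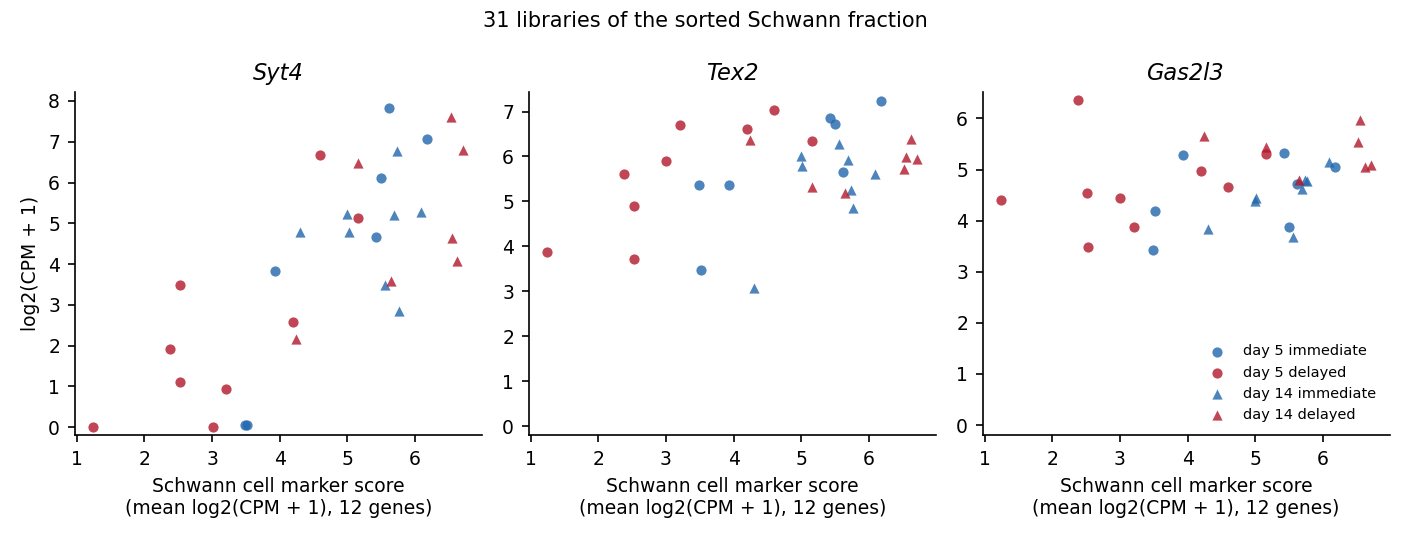
Level of Syt4, Tex2 and Gas2l3, as log2(CPM + 1), against the Schwann cell marker score in the 31 libraries of the sorted SC fraction (circles day 5, triangles day 14, blue immediate, red delayed). Syt4 spans 0 to 226 CPM and tends to be lower in libraries with low scores, while Gas2l3 ranges from 9.76 to 81.7 CPM.

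Between days 5 and 14 the 10 genes in the SC fraction did not change past the threshold in either repair group. After immediate repair edgeR called 382 of 10016 genes (3.81%) and after delayed repair 806 of 9961 (8.09%), and none of the 4 of the 10 genes that passed the filter was among them. Of the 382 genes 72 rose and of the 806 genes 333 rose; scaled by library size alone, 150 of 350 and 686 of 969 rose. DESeq2 called 950 and 1514. After immediate repair the edgeR count was 222 to 235 without day 5 replicate 2 or 3 or day 14 replicate 2, 7 or 8, and 638 without day 5 replicate 5. After delayed repair it was 359 to 521 without day 5 replicate 3, 4 or 7 or day 14 replicate 1, 2, 4 or 6. With time after immediate repair Tex2 was at -0.76 (SE 0.44, adjusted p = 0.390) and Syt4 at -0.97 (SE 1.02, adjusted p = 0.681). With time after delayed repair Syt4 was at 1.70 (SE 1.17, adjusted p = 0.378) and Gas2l3 at 0.33 (SE 0.34, adjusted p = 0.567). The fit without a filter had Matn4 at 3.95 with time after delay (SE 1.23, unadjusted p = 0.005, adjusted p = 0.075). The repair by day interaction of Syt4 was 2.67 (SE 1.64, adjusted p = 0.998).

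In the macrophages of the bridge only Gas2l3 and Tex2 passed the filter, and neither passed the test between repair groups. Gas2l3 averaged 106.7 CPM (SD 19.6) after delayed and 106.6 CPM (SD 15.3) after immediate repair at day 5, and 134.7 CPM (SD 22.2) and 130.7 CPM (SD 23.9) at day 14. Its lowest macrophage library, at 76.4 CPM, was below only 1 of the 31 SC libraries, at 81.7 CPM. The log2 fold changes were -0.08 (SE 0.14, adjusted p = 0.979) and 0.07 (SE 0.13, adjusted p = 0.9999). Tex2 averaged 36.8 and 34.9 CPM at day 5 and 46.7 and 40.8 CPM at day 14, with log2 fold changes of -0.02 (SE 0.21, adjusted p = 0.996) and 0.22 (SE 0.22, adjusted p = 0.9999). Over all genes edgeR called 3 of 8409 (0.0357%) at day 5, none of them among the 10, whereas DESeq2 called 17, the fit with the replicate block 12 and the fit with sex 8. Without delayed replicate 2, 3, 5, 6, 7 or 8 or immediate replicate 1, 2, 3 or 5, the edgeR count was 1. At day 14 it was 0 of 8589 (0%; edgeR, 190 at an unadjusted p under 0.05, 0 called by DESeq2).

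The remaining 8 genes were low or had no counts in macrophages. Nr1h4 had 0 counts in all 32 macrophage libraries, where 3 counts correspond to 0.105 to 0.201 CPM. Syt4 had counts in 1 of 32 libraries (17 counts) and D430041D05Rik in 1 (2 counts). Tmem158 ran from 0.799 to 8.33 CPM, Slc17a8 from 0 to 2.38 CPM, Arnt2 from 0 to 2.63 CPM, Matn4 from 0 to 0.786 CPM and Btbd16 from 0 to 0.572 CPM. In the SC fraction, by contrast, Syt4 had counts in 29 of 31 libraries and reached 226 CPM. Macrophage and SC libraries came from amplified cDNA of sorted cells, so these levels are set side by side without a test.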

How the data were processed

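Estimated counts per gene, as deposited by the authors, were the only values used. Per the labels and the study's methods, reads were trimmed with cutadapt 1.8 and aligned to mm10 with TopHat2 2.1.1, and the submitters' processing notes also list Cuffnorm and Cufflinks 2.2.1. Reads matching rRNA were removed from the stump libraries, which came from rRNA-depleted RNA, whereas macrophage and SC libraries came from amplified cDNA. The program that wrote the counts is not given in the sources used here. Between 0.951% and 1.18% of values were not whole and were rounded, none of them in the 10 genes. No column was left unused.

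Samples were grouped by the labels' repair timing, collection day and cell type. Each library of a group came from a different animal. A gene was tested in a comparison when 6 or more libraries reached 5 CPM, with edgeR 4.0.16 (TMM normalization, quasi-likelihood test, R 4.3.3), and p-values were adjusted by Benjamini-Hochberg over all genes tested, with a threshold of 0.05. This count test replaced the study's own test. The standard error is the log2 fold change over the square root of F. Scores used a pseudocount of 1 CPM. The 10 genes, the gene lists and the tests were chosen with earlier results of these data known. Genes named beside the 10 are all measured matrilins, Gas2 and KIAA1549 relatives, Syt11, up to 4 tested genes with the smallest p in the stump from each other pathway list, the first 2 of a marker list, and the genes closest in pattern, of which 1 is not reported here. Positions came from GENCODE M21 and promoters from RefSeq.

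Tested on simulated data, the test recovered 98% of genes changed 4-fold and 99% of genes changed 16-fold in the stump. In that simulation 13 unchanged genes were called as well. Alternatives were DESeq2 1.42.0, library-size scaling, other filters, sex, the replicate number or a Schwann cell marker score in the model, and leaving out each library. Repair groups shared replicate numbers, which the labels do not tie to a common origin, and not every same-numbered pair correlated over 0.1 in any comparison, so the main fits have no block. The 3-count limits cover counting error only.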

Additional observations from a re-analysis of the deposited data

Results flagged for a closer look

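Of the 46 combinations of a gene and a group of 4 to 10 libraries that were checked for a single distant library, 2 had one, and chance alone marks about 1 in 20. Both concern Tex2. In the SC fraction at day 14 after immediate repair, replicate 5 was at 7.471 CPM, and the other 7 libraries were at 28.04 to 76.6 CPM. In macrophages at day 14 after delayed repair, replicate 4 was at 93.41 CPM, and the other 6 were at 31.4 to 48.9 CPM.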

How the results depend on the processing

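With the Schwann cell marker score as a covariate, 24 genes were called in the stump in place of 3221, and the log2 fold changes were -2.89 (Arnt2), -2.94 (Nr1h4), -2.48 (Matn4), -1.99 (Tmem158), -2.78 (Slc17a8), -1.52 (D430041D05Rik), -1.87 (Btbd16), -1.60 (Syt4), -1.12 (Tex2) and -1.08 (Gas2l3). The 10 genes were chosen for their fall in this contrast, so its sign under the alternatives is no sign of stability. The cause was not tested. DESeq2 called 14 genes in SC at day 5, 3 in SC at day 14, 17 in macrophages at day 5, 9 for the SC interaction, 950 and 1514 with time after immediate and delayed repair, and 90 by sex in the stump. With sex as a covariate, 1 gene was called in SC at day 5 and 8 in macrophages at day 5.

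The labels give no shared origin for a replicate number, and in no comparison did every same-numbered pair correlate over 0.1. It did so in 1 of 7 pairs in the stump, 3 of 7 and 2 of 7 in SC at days 5 and 14, and 7 of 8 and 6 of 7 in macrophages at days 5 and 14. A library was closest to its own number in 0 of 7, 3 of 7, 3 of 7, 4 of 8 and 4 of 7 pairs. Same-numbered macrophage libraries thus deviated together more often than not, with a median correlation of 0.267 and 0.265. With the replicate number as a block, 2178 genes were called in the stump, 12 in macrophages at day 5, in place of 3, and 0 in both SC comparisons and in macrophages at day 14. Under the block Tmem158 moved to 0.020 and Gas2l3 to -0.18 in SC at day 5, and Tex2 to 0.0044 in macrophages at day 5.

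Other values changed sign. With the score as a covariate in SC at day 5 Syt4 moved from -1.95 to 1.59 and Tex2 from -0.20 to 1.01, and the cause was not tested. With library-size scaling Tex2 was at 0.075 and Gas2l3 at 0.0015 in macrophages at day 5, and the SC interaction of Tmem158 at 0.015. By sex in the stump, D430041D05Rik was at 0.032 with DESeq2, 0.0096 with filterByExpr and 0.027 without a filter.

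When each library was left out in turn, the counts ran from 2363 to 3347 in the stump, from 0 to 1 in SC at day 5 (1 without delayed replicate 5), from 1 to 3 in macrophages at day 5, and from 222 to 638 and 359 to 1175 with time after immediate and delayed repair. Ranges that crossed 0 were, in SC at day 5, -0.43 to 0.040 for Tmem158, -0.40 to 0.064 for Tex2 and -0.18 to 0.34 for Gas2l3. Syt4 in SC at day 5 ran from -3.29 to -1.17. For Tex2 in macrophages the ranges were -0.12 to 0.080 at day 5 and -0.048 to 0.29 at day 14. For Tmem158 they were -0.37 to 0.11 for the SC interaction and -0.42 to 0.031 with time after immediate repair. By sex they were -0.14 to 0.091 (Nr1h4), -0.029 to 0.21 (Tmem158), -0.26 to 0.15 (D430041D05Rik), -0.18 to 0.19 (Btbd16), -0.42 to 0.28 (Syt4), -0.16 to 0.011 (Tex2) and -0.21 to 0.060 (Gas2l3). For repair by sex they were -0.51 to 0.032 (Nr1h4), -0.17 to 0.44 (Btbd16), -0.0089 to 1.53 (Syt4), -0.030 to 0.42 (Tex2) and -0.42 to 0.10 (Gas2l3). Over 284 alternatives of the 13 SC and macrophage tests of the 10 genes between repair groups, 0 had an adjusted p under 0.05, and the lowest was 0.154. Matn4 passed the filter in 9 of the 15 fits of SC at day 14 that left out a library. Low counts, down to 3 or 4 in a library, limit the delayed stump values of Btbd16, Nr1h4, Slc17a8, Matn4 and D430041D05Rik.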
